A study of Rattus norvegicus with 11 samples.

Results

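The miR-181 family of microRNAs (miRNAs) was measured in rat pancreatic islets as 10 mature arms, out of 898 distinct features in the count table. Members were the table rows named miR-181a, miR-181b1, miR-181b2, miR-181c or miR-181d that carry the sense tag, with both the 5p and the 3p arm of each name. The adult group held 6 libraries of islets from control male Sprague-Dawley rats aged 3 months (12 weeks). The P10 group held 5 libraries of islets from control Sprague-Dawley pups aged 10 days (1.5 weeks). The labels name the sex of the adults and not that of the pups, so age and sex cannot be told apart. The labels do not say how many animals gave each library.

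Each miRNA hairpin gives a 5p and a 3p arm, and the arm loaded into Argonaute pairs with messenger RNAs mainly through its seed, bases 2 to 8. The miR-181 genes form clusters of an a or c gene next to a b or d gene, generally transcribed together. In the mouse, miR-181a is known for tuning the sensitivity of the T cell receptor, and the family is abundant in thymus and brain. Whole islets hold endocrine cells together with vascular, mesenchymal and blood cells, so fewer cells of a type and less RNA per cell cannot be told apart in these libraries.

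In the authors' coordinates (Rnor_5.0), miR-181a-5p lies on chromosome 3 (28374807 to 28374829, plus strand), 1079 bases before miR-181b2-5p. miR-181b1-5p lies on chromosome 13 (59986271 to 59986293, plus strand). miR-181c-5p lies on chromosome 19 (36267372 to 36267393, minus strand), 171 bases from miR-181d-5p by start coordinate. The table gives miR-181a at chromosome 3 alone, whereas RefSeq (GRCr8) lists its 5p sequence at 2 loci, Mir181a2 on chromosome 3 and Mir181a-1 on chromosome 13. Likewise the RefSeq miR-181b-5p sequence occurs in the Mir181b2 hairpin, so reads of miR-181a-5p and miR-181b-5p cannot be assigned to 1 locus by sequence, and the split between the miR-181b1 and miR-181b2 rows is uncertain.

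The 5p sequences from RefSeq (GRCr8, plus strand) are shown because the members share a seed and differ by few bases elsewhere; capitals mark the seed.
miR-181a-5p: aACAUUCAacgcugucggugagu
miR-181b-5p: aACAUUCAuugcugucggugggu
miR-181c-5p: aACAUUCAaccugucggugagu
miR-181d-5p: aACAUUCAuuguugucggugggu
All 4 share the seed ACAUUCA, which no other mature rat miRNA in the RefSeq table carries. Positions count from 1 at the 5′ end. Against miR-181a-5p, miR-181b-5p has A9U, C10U and A21G, and miR-181c-5p lacks the G at position 11. miR-181d-5p differs from miR-181b-5p by C12U alone.

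The 3p sequences, with the seed in capitals, are shown because they tell the loci apart.
miR-181a-1-3p: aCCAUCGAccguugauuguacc
miR-181a-2-3p: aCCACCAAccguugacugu
miR-181b-1-3p: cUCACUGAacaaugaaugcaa
miR-181c-3p: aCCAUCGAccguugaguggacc
miR-181d-3p: cCACCGGGggaugaauguca
The seed CCAUCGA is shared by miR-181a-1-3p and miR-181c-3p, while miR-181a-2-3p differs from miR-181a-1-3p inside the seed by U5C and G7A. The row named miR-181a-3p lies on chromosome 3, is 19 bases long and starts 45 bases after miR-181a-5p, the length and spacing that RefSeq gives for miR-181a-2-3p.

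Library totals ran from 1432929 to 2847837 counts in adults and from 1599157 to 4483017 counts at P10, and 457 features passed the abundance filter. Levels are CPM, counts scaled to a library of 1000000 after TMM normalisation, and log2 fold changes are adult minus P10. Among all tested features 29.5% were lower and 21.2% higher in adults by edgeR's quasi-likelihood test (Benjamini-Hochberg adjusted p under 0.05 over all 457). Higher features made up 41.8% of the calls with TMM, 22.4% when scaled by library totals and 55.2% by upper quartiles. These 2 scalings moved the median log2 fold change of all features by -0.26 and 0.16. miR-375-3p, the leading endocrine miRNA, averaged 287885 CPM in adults and 143152 CPM at P10.

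The miR-181 arms that could be tested were lower in adult islets. Of the 10 members 8 passed the filter, 5 of the 5p and 3 of the 3p side, and 1 of these, miR-181b1-3p, passed only through the P10 libraries, where it was high. It was left out of the counts of falling arms that come next, while later counts of 8 arms include it. The 7 arms that passed at both ages all fell, against 29.5% of all tested features and 28.5% of the 400 that passed at both ages. Their median log2 fold change was -2.01, against -0.11 over all 457 features. More than 2-fold falls were called for 6 of the 7, against 18.4% of all features. In 5 of the 7 every adult library lay below every P10 library, which held for 16.4% of all features. The calls held under both of these scalings and with any 1 library left out. Of 4 mesenchymal marker miRNAs matched by name, 3 also fell. With the mean level of the 4 as a covariate, 23 of the 457 features passed, against 232 without it. Among the arms, 2 passed in that fit, both of miR-181c, and miR-181b1-5p changed direction (log2 fold change 0.13, edgeR adjusted p = 0.931). That level did not overlap between the ages, so it and age cannot be told apart. The 10 members together held 0.652% ± 0.138 of library counts in adults and 1.89% ± 0.231 at P10 (SD over 6 and 5 libraries). That share ran from 0.513% to 0.884% in adults and from 1.52% to 2.09% at P10, a description with no test.

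**Figure D1:**
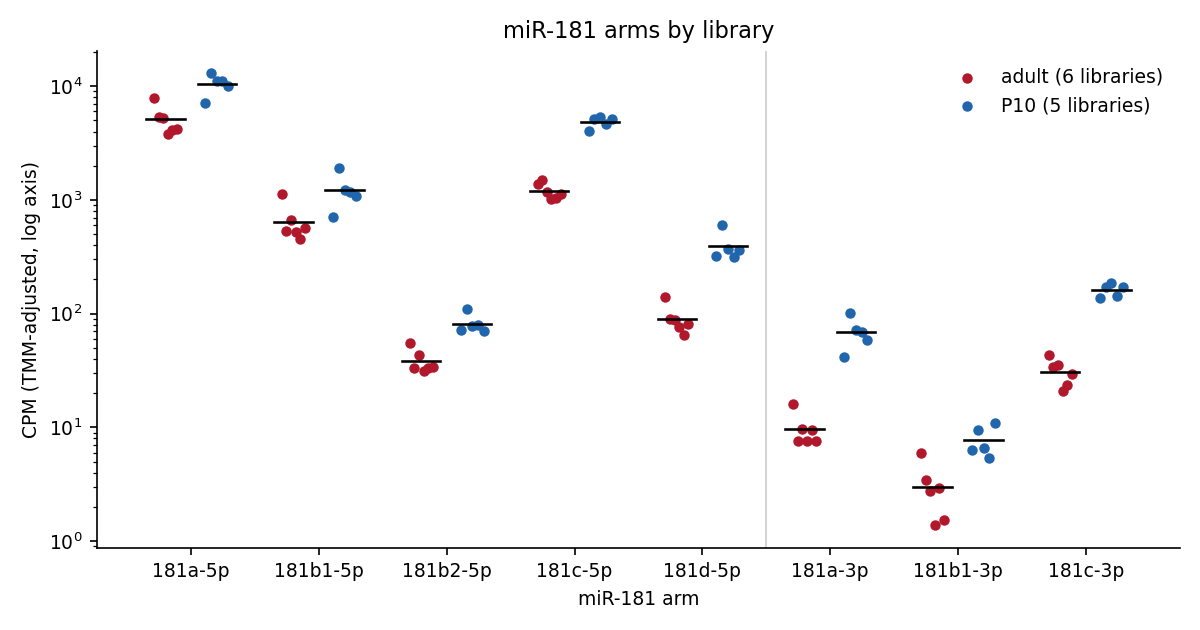
CPM of the 8 tested miR-181 arms in each library on a log axis, adult libraries to the left and P10 libraries to the right of each arm, with the group mean as a bar. Every adult library lies below every P10 library for miR-181b2-5p, miR-181c-5p, miR-181d-5p, miR-181a-3p and miR-181c-3p, and the ages overlap for miR-181a-5p and both miR-181b1 arms.

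miR-181c-5p and miR-181d-5p, from the chromosome 19 cluster, fell most among the 5p arms. miR-181c-5p had a lowest value of 1015, a median of 1148 and a highest value of 1506 CPM in adults, and had 4004, 5167, 5311, 4676 and 5174 CPM at P10 (replicates 1, 3, 4, 5 and 6). The 2 ages were far apart, with the highest adult library well under the lowest P10 library. Its mean was 1205 ± 197 CPM in adults and 4866 ± 539 CPM at P10 (SD over 6 and 5 libraries). The log2 fold change was -2.01 with an SE of 0.13 (adjusted p = 1.46e-07 by edgeR). By mean CPM it ranked 58 among tested features in adults and 26 at P10. Its neighbour miR-181d-5p had a lowest value of 64.6, a median of 84.7 and a highest value of 139.7 CPM in adults, and had 319, 600.3, 368, 315 and 362 CPM at P10. Adult replicate 1 stood above the other adults and P10 replicate 3 above the other pups, without overlap between ages. miR-181d-5p fell 4.39-fold (log2 fold change -2.13 ± 0.22 SE, edgeR adjusted p = 4.71e-06).

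miR-181a-5p, the most abundant member at both ages, and the miR-181b 5p arms fell about 2-fold. miR-181a-5p had a lowest value of 3814, a median of 4737 and a highest value of 7937 CPM in adults, and had 7083, 12984, 11135, 11229 and 10027 CPM at P10. The ages overlapped, because adult replicate 1 exceeded P10 replicate 1. The means were 5126 ± 1517 CPM in adults and 10492 ± 2179 CPM at P10 (SD over 6 and 5 libraries). The log2 fold change was -1.03 with an SE of 0.20 (adjusted p = 0.000681 by edgeR). miR-181b1-5p had a lowest value of 455, a median of 546 and a highest value of 1128 CPM in adults, and had 710.2, 1894, 1227, 1178 and 1094 CPM at P10. The ages overlapped, because adult replicate 1 exceeded P10 replicates 1 and 6. Its log2 fold change of -0.92 ± 0.26 (SE) was the smallest in size of the 8 (adjusted p = 0.00934 by edgeR). miR-181b2-5p had a lowest value of 31.1, a median of 33.6 and a highest value of 55.0 CPM in adults, and had 71.7, 111, 77.3, 79.8 and 69.9 CPM at P10. It fell 2.14-fold with no overlap (edgeR adjusted p = 0.000253).

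The 3p arms were scarce and fell by unequal amounts. miR-181a-3p, the chromosome 3 arm, had a lowest value of 7.60, a median of 8.62 and a highest value of 16.1 CPM in adults, and had 41.3, 101, 72.6, 69.5 and 58.8 CPM at P10. No adult library came near the P10 range, and the fall of 7.17-fold ranked 3 among the 457 features by log2 fold change (-2.84 ± 0.26 SE, edgeR adjusted p = 1.82e-06). The adult values rest on 11 to 26 counts per library. miR-181c-3p had a lowest value of 20.7, a median of 31.8 and a highest value of 43.2 CPM in adults, and had 138, 172, 186, 144 and 172 CPM at P10. It fell 5.27-fold with no overlap (edgeR adjusted p = 4.52e-07). miR-181b1-3p, with 2 to 9 counts per adult library and 14 to 53 per P10 library, fell 2.62-fold with overlapping ages (edgeR adjusted p = 0.00353), a feature that reached the filter at P10 alone.

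Of the 10 members, 2 were too scarce to test. miR-181b2-3p had 0 of 12205742 counts in adults and 9 of 14873946 at P10, in 4 of 5 libraries. The limit that a count of 0 allows was taken as 3 counts over the adult group, and the 9 P10 counts as exact. On those terms the fall was at least 2.46-fold. The counting error of the 9 was not included, so 2.46 is not an estimate of the fall, nor a lower bound once that error is counted. miR-181d-3p had 0 counts in adults and 2 at P10, both groups under that limit, so no fold is given. The limit covers the counting error of a count of 0 only, and PCR reads without molecular identifiers are not independent molecules.

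**Figure D2:**
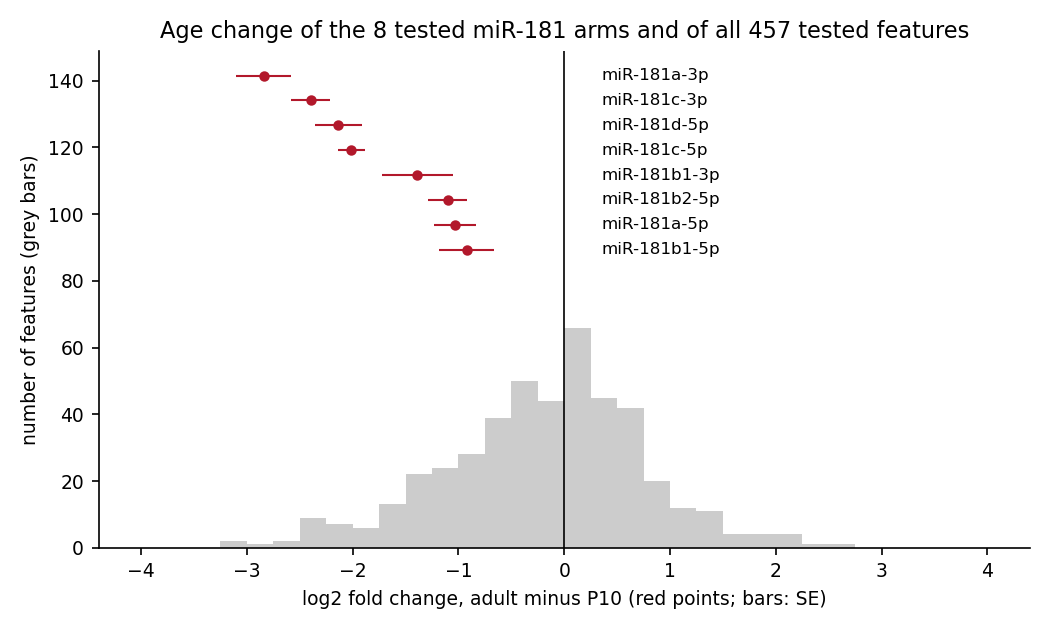
Log2 fold changes (adult minus P10) of the 8 tested miR-181 arms as red points with SE bars, above a histogram of the log2 fold changes of all 457 tested features in grey. All 8 points lie left of 0, from -2.84 for miR-181a-3p to -0.92 for miR-181b1-5p, while the median of all features is -0.11. Of the 8, miR-181b1-3p reached the filter at P10 alone.

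Whether the members differed from each other in their age change was asked of the ratios between the 5p arms, which do not depend on the scaling of a library. All 10 pairs of the 5 tested 5p arms were compared by a two-sided exact permutation test with all 462 assignments of age to library, adjusted over the 10 pairs. The 6 pairs that set a chromosome 19 member (miR-181c or miR-181d) against a miR-181a or miR-181b member all passed, and the 4 pairs within those sets did not. The 10 pairs are built from the same 5 arms, so they are not independent of each other. In addition, the miR-181b1 and miR-181b2 rows stand for 1 mature 5p sequence. The smallest p this exact test allows is 0.00216, and the smallest adjusted p that the 10 pairs gave was 0.00541.

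The count ratio of miR-181a-5p to miR-181c-5p had a lowest value of 3.56 and a highest of 5.75 in adults, and was 1.77, 2.51, 2.10, 2.40 and 1.94 at P10. All 6 adult libraries exceeded all 5 P10 libraries, a difference of 0.97 ± 0.14 on the log2 scale (SE, exact permutation adjusted p = 0.00541). The ratio of miR-181b1-5p to miR-181d-5p was 7.03 in adults and 3.05 at P10 (geometric means), higher in all 6 adult libraries than in any P10 library (log2 difference 1.20 ± 0.14 SE, exact permutation adjusted p = 0.00541). These sequences have 1 seed in common, and miR-181d-5p differs from miR-181b-5p by C12U alone. The ratio of miR-181b1-5p to miR-181c-5p was the called pair whose ages overlapped (log2 difference 1.10 ± 0.24 SE, exact permutation adjusted p = 0.0108).

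Within each set the differences were smaller, with intervals that reach across 0. For miR-181c-5p over miR-181d-5p the log2 difference was 0.10 (95% interval -0.30 to 0.53 by inverting the exact permutation test, adjusted p = 0.618). For miR-181a-5p over miR-181b1-5p it was -0.13 (interval -0.40 to 0.16, exact permutation adjusted p = 0.409). For miR-181a-5p over miR-181b2-5p it was 0.05 (interval -0.21 to 0.34, exact permutation adjusted p = 0.71). For miR-181b1-5p over miR-181b2-5p it was 0.18 (interval -0.12 to 0.53, exact permutation adjusted p = 0.409). As a share of family counts, miR-181a-5p took 71.4% ± 1.79 in adults and 60.4% ± 2.39 at P10, and miR-181c-5p took 17.3% ± 2.49 in adults and 28.5% ± 3.12 at P10 (SD, n = 6 and 5).

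**Figure D3:**
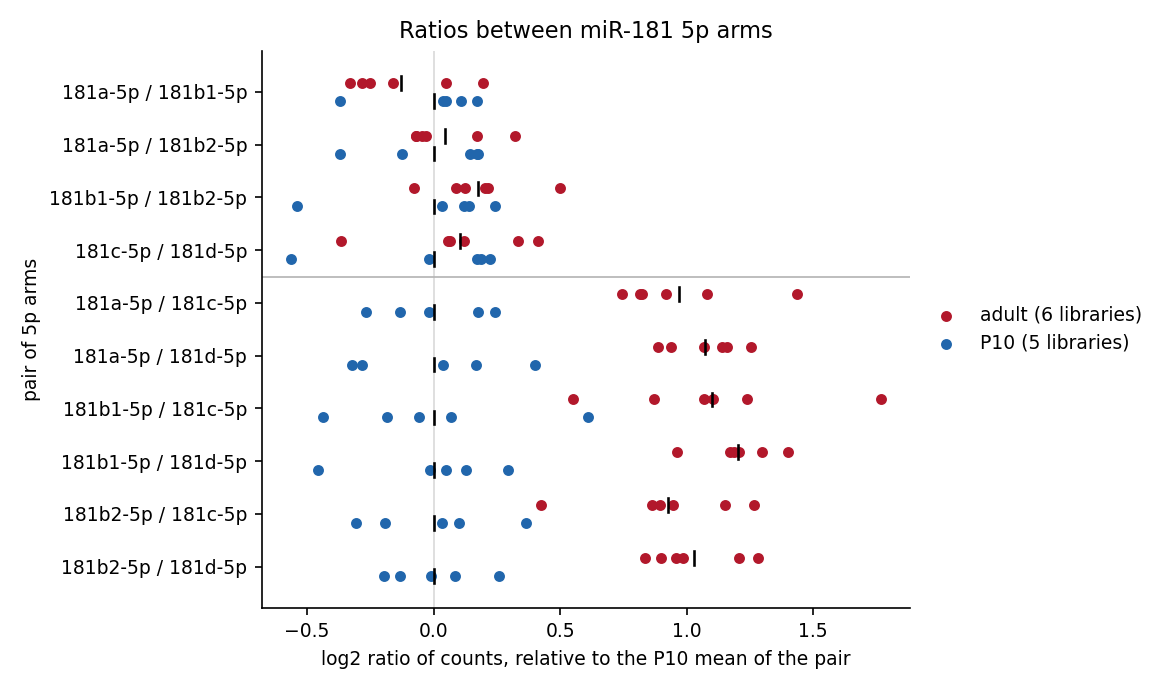
Log2 ratio of counts for the 10 pairs of 5p arms, 1 point per library, set to 0 at the P10 mean of each pair, with adult points above P10 points in each row and group means as bars. In the 4 upper rows the ages overlap around 0, and in the 6 lower rows, which pair a chromosome 19 member with another, the adult means lie between 0.92 and 1.20.

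The balance of the 2 arms was compared over 109 precursors with both arms tested, with limma fitted to log2 5p-to-3p CPM ratios. A prior count of 2 was added to each arm, which lowers the ratio where the 3p arm holds few counts. Of the 3 miR-181 names with both arms, 1 changed, against 11% of precursors in which the ratio rose and 11.9% in which it fell. For miR-181a that ratio was 490 in adults and 154 at P10 (geometric means). By library that ratio ran from 401 to 638 in adults and was 168, 128, 152, 159.7 and 168 at P10, with no overlap. The log2 difference was 1.67 ± 0.17 (SE, limma adjusted p = 1.18e-05 over the 109). The 5p row can hold reads of both miR-181a loci, while the 3p row is the chromosome 3 arm, so this ratio is not that of a single hairpin. For miR-181c, whose arms have 1 locus, the ratio was 38.6 in adults and 29.8 at P10 (log2 difference 0.37 ± 0.16 SE, limma adjusted p = 0.104). For miR-181b1 it was 175 in adults and 141 at P10 (log2 difference 0.32 ± 0.27 SE, limma adjusted p = 0.412). Its 3p arm held 2 to 9 counts per adult library and reached the filter at P10 alone. With a prior count of 0.5 the log2 difference of miR-181b1 was 0.50 (limma adjusted p = 0.217).

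**Figure D4:**
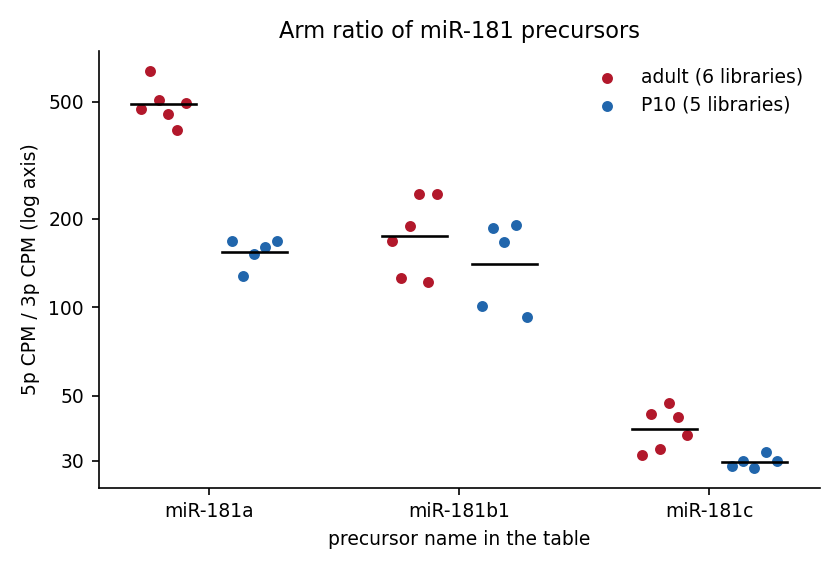
Ratio of 5p to 3p CPM (log axis, prior count of 2) for the 3 miR-181 names with both arms tested. Each point is 1 library, with adult libraries left of P10 libraries and bars at the geometric mean. For miR-181a the adult libraries lie between 401 and 638 and the P10 libraries between 128 and 168; the ages overlap for miR-181b1 and miR-181c.

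The 3p arm of the other miR-181a locus appears in the table under another name. On chromosome 13 (59986129 to 59986150) the row miR-3570-5p, antisense, starts 142 bases before miR-181b1-5p. In GRCr8, RefSeq gives miR-3570 and miR-181a-1-3p the same place on opposite strands (chr13:52037121-52037142), also 142 bases before miR-181b-5p, and the sequences are reverse complements.
miR-3570: gGUACAAUcaacggucgauggu
miR-181a-1-3p: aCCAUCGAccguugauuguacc
The row was chosen after its values were seen. It had a lowest value of 55.3, a median of 78.6 and a highest value of 88.9 CPM in adults, and had 194, 225, 224, 189 and 199 CPM at P10. Adults lay below P10 without overlap, and the feature fell 2.75-fold (log2 fold change -1.46 ± 0.15 SE, edgeR adjusted p = 3.51e-06). With the mesenchymal covariate described below its log2 fold change was -0.87 (edgeR adjusted p = 0.120).

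Apart from miR-3570, the nearest other miRNAs to any member were those of the miR-23a, miR-27a and miR-24 cluster. That cluster lies 27386 bases from miR-181c-5p (to miR-23a-5p) and is annotated on the opposite strand. Of its 6 sense features within 100000 bases, 5 were tested: 3 fell, 1 rose and 1 did not pass, against 29.5% lower and 21.2% higher overall. miR-23a-3p, from a cluster known in vascular and muscle cells, fell 1.51-fold to 285 ± 56.7 CPM in adults, against 430 ± 28.8 CPM at P10 (SD, n = 6 and 5, edgeR adjusted p = 0.00420). miR-24-5p fell 1.71-fold (edgeR adjusted p = 0.00156) and miR-27a-5p fell 1.73-fold (edgeR adjusted p = 0.00724). miR-24-3p instead rose 1.77-fold, to 559 ± 84.5 CPM in adults, against 315 ± 65.6 CPM at P10 (edgeR adjusted p = 0.000773); miR-24 has a further copy elsewhere in the rat genome, and the row may hold its reads. miR-27a-3p averaged 727 CPM in adults and 881 CPM at P10 (edgeR adjusted p = 0.0965), and was called lower when scaled by library totals (log2 fold change -0.53, adjusted p = 0.00174), without adult replicate 1 (-0.32, adjusted p = 0.04996) and without P10 replicate 1 (-0.35, adjusted p = 0.0350). With the mesenchymal covariate none of the 5 passed as lower, and miR-24-3p had a log2 fold change of 1.07 (edgeR adjusted p = 0.104).

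Mesenchymal marker miRNAs, typical of fibroblasts, stellate and smooth muscle cells, moved with the family. Of 5 listed markers 4 were matched by name, and 3 of them fell: miR-199a-5p, miR-199a-3p and miR-145-5p. The other, miR-143-3p, had a log2 fold change of -0.49 (edgeR adjusted p = 0.174). Their summed level ran from 17139 to 58197 CPM in adults and from 33171 to 60968 CPM at P10, and none of the 4 was at 0 in either group. Their mean log2 CPM ran from 8.39 to 10.13 in adults and from 10.60 to 10.97 at P10, so it separated the ages. It was highest in adult replicate 1 and in P10 replicate 3. Adult replicate 1 was also the highest adult library for 7 of the 8 miR-181 arms, all but miR-181c-5p, and P10 replicate 3 the highest pup library for 5 of the 8. P10 replicate 1 had the next highest mesenchymal level among the pups (10.86), yet was the lowest pup library for 5 of the 8 arms. Without adult replicate 1 and P10 replicate 3, left out together after seeing the data, all 8 arms remained lower. Of these 8, miR-181b1-3p reached the filter at P10 alone.

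With that mesenchymal level as a covariate beside age, 2 of the 8 arms passed, both from miR-181c. In that fit 23 of the 457 features passed, against 232 without it. miR-181c-5p stood at -1.53 ± 0.26 (log2, SE, adjusted p = 0.00488 by edgeR) and miR-181c-3p at -1.59 ± 0.36 (adjusted p = 0.0336). Of the arms not called in that fit, miR-181a-3p had -1.85 ± 0.58 (SE, edgeR adjusted p = 0.103) and miR-181d-5p -1.15 ± 0.41 (0.143). miR-181b2-5p had -0.35 (edgeR adjusted p = 0.668) and miR-181a-5p -0.07 (0.940). The value of miR-181a-3p was larger in size than those of the miR-181c arms. Its SE was 0.26 without the covariate, and that of miR-181d-5p was 0.22, so a lost call does not show that a fall was absent. The miR-181b1 arms changed direction, with 0.13 for miR-181b1-5p (edgeR adjusted p = 0.931) and 0.40 for miR-181b1-3p (0.889). Because the covariate does not overlap between ages, age and mesenchymal level cannot be told apart by design, in the miR-181c arms as in the others.

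**Figure D5:**
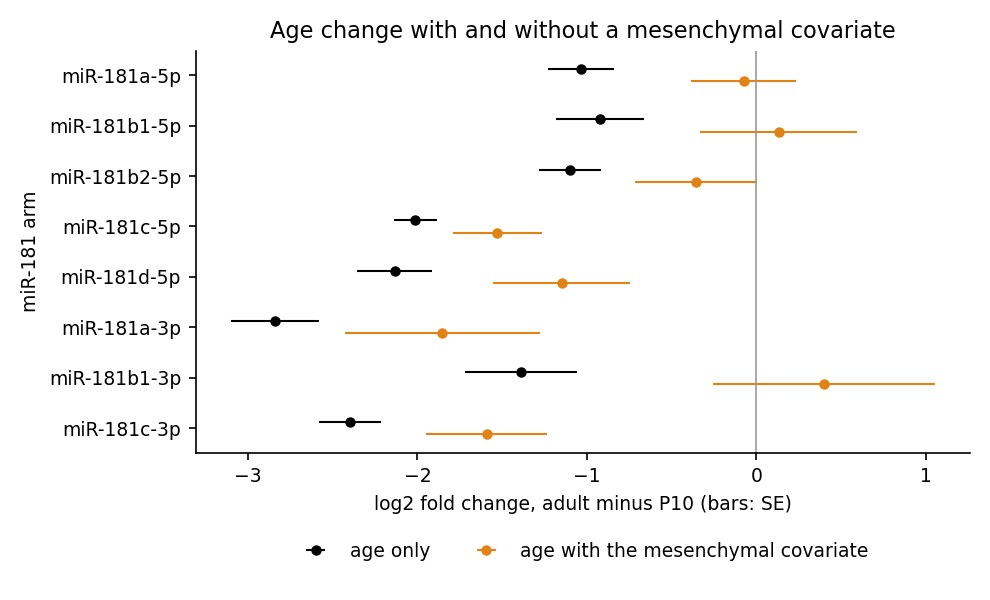
Log2 fold change (adult minus P10, bars SE) of the 8 tested miR-181 arms with age alone in black and with the mesenchymal marker level as a covariate in orange. With the covariate the miR-181c arms are at -1.53 and -1.59, and miR-181a-3p is at -1.85 with a wider SE. miR-181a-5p moves to -0.07 and the miR-181b1 arms cross 0.

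Markers of other cell types gave mixed values beside the family. Of 4 leukocyte markers matched by name 1 fell, miR-150-5p (log2 fold change -1.48, edgeR adjusted p = 0.00156). The summed level of the 4 ran from 248 to 829.1 CPM in adults and from 676 to 1422 CPM at P10. Of the 3 acinar markers 2 rose, with sums from 25.6 to 119 CPM in adults and from 20.5 to 32.7 CPM at P10. The 4 islet endocrine markers rose, with sums from 252551 to 325899 CPM in adults and from 113531 to 166473 CPM at P10. The 1 tested erythroid marker, miR-451-5p, had a log2 fold change of -0.32 (edgeR adjusted p = 0.505). Of the neural markers, miR-124-3p held 8 counts over all adult libraries and 27 over all P10 libraries and was too scarce to test. A search by name for the listed endothelial, skeletal muscle and hepatic markers and miR-9-5p matched no feature. They were not analysed, which does not show that they were absent. The part of these cell types in the miR-181 result was not tested.

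The features whose profile was most like that of miR-181c-5p were miR-450a-5p, miR-322-3p, miR-21-5p, miR-92a1-3p and miR-322-5p. Likeness was the root mean square difference of mean-centred log2 CPM over the 11 libraries, among 171 named features outside the family whose mean over all 11 libraries was at least 50 CPM. It was 0.26 for miR-450a-5p, against 0.25 for its own 3p arm, 0.27 for miR-181d-5p and 0.53 for miR-181a-5p. miR-450a-5p averaged 75.0 CPM in adults and 301 CPM at P10, and miR-21-5p averaged 4639 CPM in adults and 14603 CPM at P10. Most like miR-181a-5p were miR-130a-3p (0.16), miR-92a2-3p (0.21), miR-24-5p (0.23), miR-145-3p (0.24) and miR-298-5p (0.25). For miR-181a-5p the values within the family were 0.18 for miR-181b2-5p and 0.20 for miR-181b1-5p, and 0.53 for miR-181c-5p. miR-130a-3p, the nearest of them, averaged 415 CPM in adults and 869 CPM at P10.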

How the data were processed

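Small RNA libraries were made from total islet RNA with a TruSeq kit after Trizol extraction, per the labels' protocols. The deposited values are raw counts for each arm at each locus; per the file headers the coordinates are those of Rnor_5.0, and rn5, edgeR and DESeq are named in the submitters' processing notes, without role or version. Aligner and counting rules: not given in the sources used here. All 11 library tables held the same counts as the series table. Ligation and PCR favour some sequences, so 1 arm between libraries is more comparable than different arms within 1; a read spans an arm, so no length scaling was made.

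Each name entered once, with its highest count over repeated rows. Counts were analysed in R 4.3.3 with edgeR 4.0.16 (filterByExpr, TMM, robust quasi-likelihood, age), limma 3.58.1 for arm ratios (prior count 2) and DESeq2 1.42.0 as an alternative. SEs of log2 fold changes come from the quasi-likelihood statistic. Those of arm ratios come from limma, and those of ratios between 5p arms from the variances within each age. Ratios between 5p arms used a prior count of 0.5. The steps were tested on simulated data. Libraries of 1 age differed pairwise by far more than counting error (chi-square at least 11.7 times its degrees of freedom). Members, marker lists and tests were chosen with earlier results of these data known. Named miRNAs are all members, features within 100000 bases of them, the markers, and the 5 most alike in profile to miR-181c-5p and to miR-181a-5p. Sequences are from RefSeq (GRCr8); 8 of 10 members matched by name and arm or locus, all but miR-181b2-5p and miR-181b2-3p. P-values measure the spread between the libraries, which the labels call biological replicates.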

Additional observations from a re-analysis of the deposited data

Results flagged for a closer look

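In 6 of 44 groups of libraries examined, the highest or lowest library stood apart from the rest by Dixon's criterion. Chance alone meets it in about 1 of 20 independent groups of normally distributed values. The 44 groups come from the same 11 libraries and share arms, so that rate gives no expected number here. Each of the 6 is adult replicate 1 or P10 replicate 3, the libraries with the highest mean mesenchymal marker level of their age. In adult replicate 1, miR-181a-3p was at 16.1 CPM (next highest adult 9.62), miR-181b1-5p at 1128 CPM (next highest 668) and miR-181d-5p at 139.7 CPM (next highest 89.0). In P10 replicate 3, miR-181b2-5p was at 111 CPM (next highest pup 79.8) and miR-181d-5p at 600.3 CPM (next highest 368), and the count ratio of miR-181a-5p to miR-181b1-5p was 6.86 (next lowest 9.07).

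A signal lay outside the family's own rows: the antisense row of miR-3570-5p, at the place RefSeq gives for miR-181a-1-3p, held at least 80 counts in every library, above the 3 counts that a count of 0 allows.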

How the results depend on the processing

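The alternatives left 8 miR-181 arms lower (miR-181b1-3p, which reached the filter at P10 alone, among them) under each scaling, with no filter, with limma-voom, DESeq2 and summed rows, without any 1 library and without adult replicate 1 and P10 replicate 3 together (chosen after seeing the data). A mean CPM of at least 10 left 7 arms tested, all lower. With the mesenchymal covariate 2 arms and 0 neighbours were called lower. In that fit miR-181b1-3p (0.40), miR-181b1-5p (0.13), miR-23a-3p (0.11) and miR-27a-3p (0.21) changed direction; the cause was not tested.

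Replicate numbers did not pair the ages (correlations of deviations from -0.21 to 0.20, no P10 library matching its own number best). With the replicate block 8 arms were lower, and 0 of the 10 ratios passed, because 5 pairs allow no p below 0.0625; the log2 difference of miR-181a-5p over miR-181b2-5p, not called, was then -0.0084. It was -0.0093 without adult replicate 1 and P10 replicate 3, and ran from -0.045 to 0.091 without 1 library; miR-181c-5p over miR-181d-5p ran from -0.036 to 0.20. The number of ratios called was 6 without any 1 library. Of 504 recomputed single values, 478 kept direction and call. Depth limits the 3p arms, above all miR-181b1-3p.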

Other observations

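The reads at the 3p arms of the miR-181a loci were in a different ratio at the 2 ages. Counts of miR-3570-5p antisense (the place of miR-181a-1-3p, chromosome 13) over miR-181a-3p (chromosome 3) were 8.09 ± 1.83 in adults (SD, n = 6, from 5.53 to 11.1) and 3.23 ± 0.931 at P10 (SD, n = 5, from 2.23 to 4.70), without overlap. The ratio was chosen after its values were seen and has no test. The row miR-181a-5p, antisense, held 1 count, in P10 replicate 4.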
